A study of Mus musculus with 8 samples.

Results

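The genes described here are the box C/D small nucleolar RNA (snoRNA) genes of the mouse, chosen as every row of the authors' 5 tables whose name begins with Snord, apart from loci in an imprinted small RNA cluster on distal chromosome 12, where no such row was found. They numbered 62 of the 10822 feature names in the tables. The supernatant table listed 61 of them among 5096 features, the pellet one listed 58 of 3005, the ACR IP one 48 of 2543, the MVH IP one 38 of 8959 and the round spermatid one 37 of 1014. Every table listed 24 of the 62, and the choice used names and positions, with no measured value.

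The study followed RNA of 19 to 33 nt through purification of the chromatoid body, the cytoplasmic granule of RNA and protein in round spermatids, in 8 libraries of C57BL/6 mice at least 6 weeks old. Testis cells were fixed with formaldehyde and sonicated, and the groups were a supernatant (1 library), 2 successive pellets (1 library each), an immunoprecipitate with an antibody to MVH, the vasa homolog DDX4 (MVH IP, 2 libraries), a control immunoprecipitate with an antibody to acrosin (ACR IP, 1 library), sorted round spermatids (1 library) and the whole lysate (1 library). The round spermatids were labelled hetMIWI, and the labels say nothing more of that genotype. The labels do not say whether tissue of several animals was pooled. The deposited pellet column may hold either pellet, and the MVH IP column stands for both libraries, so both are given as the authors' values. Levels are FPKM, fragments scaled by feature length and by library size, and with 1 column per group no comparison below has a replicate check or a test between conditions.

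Box C/D snoRNAs are short nucleolar RNAs that pair with ribosomal RNA and direct the methyltransferase fibrillarin, held with Nop56, Nop58 and Snu13, to methylate the paired nucleotide on its ribose. Most are cut out of introns of genes for ribosomal proteins and translation factors, and their C box near the 5′ end and D box near the 3′ end form the site where the proteins bind. A full-length box C/D snoRNA is longer than the RNA selected on the gel here, so these libraries read fragments of snoRNAs and not the intact RNA.

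The name was checked against sequence. GENCODE mouse release 21 (GRCm38) held 61 of the 62 by symbol, all but Snord116, with lengths of 64 to 238 nt and a median of 80 nt. A D box, CTGA, lay in the last 20 nt of 59 of the 61, all but Snord53 and Snord68. The C box, TGATGA, lay in the first 30 nt of 39 exactly and of all 61 with at most 1 mismatch. On the same strand and in the same windows, both boxes with at most 1 mismatch in the C box were present in 59 of the 61 (96.7%), in 0 of 42 box H/ACA snoRNA genes (Snora), the other large class, and in 15 of 2202 microRNA hairpins (0.681%). TGATGA on either strand was found in the first 50 nt of 63.9% of the 61 genes. It was found in the last 50 nt of 1.92% of the 32851 RefSeq promoters, which are not transcripts, and CTGA was not counted there.

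The 6 genes on which the results turn are shown 5′ to 3′ as the DNA strand of the RNA, with the C box (1 mismatch in Snord2 and Snord57) and the D box in capitals. They lie on GRCm38 at chr16:23108953-23109021 (Snord2, plus strand), chr10:81178950-81179013 (Snord37, plus), chr14:31014287-31014366 (Snord69, minus), chr11:48803139-48803206 (Snord95, plus), chr2:130278016-130278087 (Snord57, plus) and chr11:106500993-106501062 (Snord104, plus).
Snord2: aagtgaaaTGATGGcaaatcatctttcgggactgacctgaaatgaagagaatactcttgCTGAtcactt
Snord37: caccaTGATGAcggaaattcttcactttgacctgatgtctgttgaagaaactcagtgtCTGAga
Snord69: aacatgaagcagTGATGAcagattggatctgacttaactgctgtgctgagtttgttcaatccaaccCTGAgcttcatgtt
Snord95: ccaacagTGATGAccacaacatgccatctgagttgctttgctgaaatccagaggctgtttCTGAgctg
Snord57: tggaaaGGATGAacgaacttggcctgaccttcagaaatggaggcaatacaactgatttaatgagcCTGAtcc
Snord104: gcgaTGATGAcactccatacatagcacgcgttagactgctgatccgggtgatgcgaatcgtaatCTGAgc
In human, SNORD2, SNORD37, SNORD69, SNORD95 and SNORD104 are guides to the large-subunit ribosomal RNA and SNORD57 is a guide to the small-subunit one. In the files Snord2 shares its locus with Eif4a2, a translation initiation factor gene, Snord37 with Eef2, the elongation factor gene, Snord95 with Gnb2l1, which encodes a protein of the small ribosomal subunit, and Snord69 with Glt8d1 and Spcs1.

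Fragments of these genes were measured at high levels in supernatant, pellet, round spermatids and lysate, and were nearly all listed at 0 in both immunoprecipitates. Of the genes listed, 57 of 61 were above 0 in the supernatant, 47 of 58 in the pellet, 1 of 48 in the ACR IP, 3 of 38 in the MVH IP and 35 of 37 in round spermatids, against 56 of 61 in the lysate of the supernatant table. The background was 97.1% of all features above 0 in the supernatant, 89.3% in the pellet, 58.7% in the ACR IP, 53.8% in the MVH IP and 96.8% in round spermatids, against 94.5% in that lysate column. The median level was 816 FPKM in the supernatant against 834 FPKM in the lysate beside it, 292 FPKM in the pellet against 2024 FPKM in its lysate, and 730 FPKM in round spermatids. The members' part of the summed FPKM of a column was 0.761% in the supernatant against 1.10% in its lysate, 3.97% in the pellet against 1.10%, and 0.450% in the ACR IP against 1.40%. It was 0.256% in the MVH IP and 1.957% in round spermatids.

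**Figure D1:**
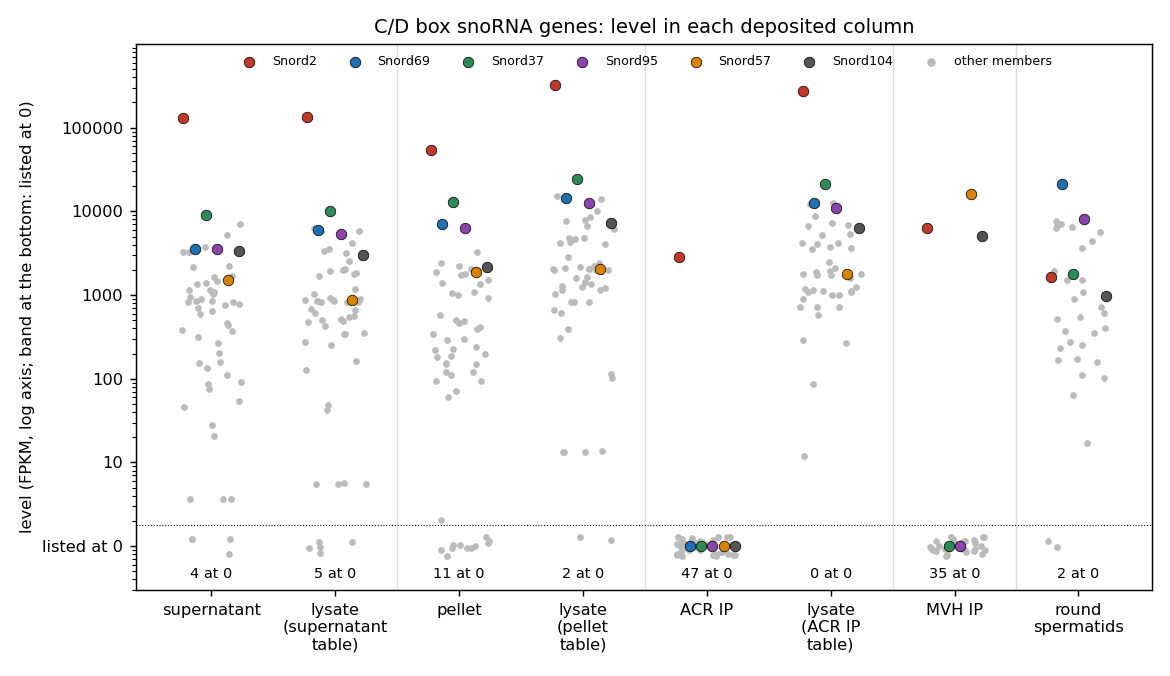
Level in FPKM (log axis, with a band at the bottom for genes listed at 0) of each box C/D snoRNA gene in the 8 columns used, 1 point per gene, with 6 genes in colour. Snord2 stands above all others in supernatant, pellet and lysate, 47 of 48 genes are at 0 in the ACR IP and 35 of 38 in the MVH IP, and Snord69 leads in round spermatids.

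The depth behind these levels was small for all but Snord2. In the supernatant table the ratio of supernatant to lysate shared by the most features was 0.667, found for 108 of 4669 features above 0 in both columns, and was taken as the worth of 1 supernatant read in lysate reads. With that step, the standard error (SE) implied by the authors' test statistic corresponds, for counting error alone, to about 1003 lysate reads for Snord2 and at most 47.5 for any other member (Snord55). The median over the 52 members above 0 in both columns was 8.63 implied lysate reads, 31 of the 52 were under 10, and 1 read was worth a median of 138 FPKM. Snord64, for example, had 477 FPKM in the lysate on about 0.98 implied reads. Values under 1, such as 0.098 for Snord116, cannot be whole reads. The implied reads are therefore rough, and the SE may hold more than counting error. The worth of 1 read ran from 2.93 FPKM (Snord17) to 547 FPKM (Snord68), so the order by FPKM is not the order by reads. Snord68 had 3321 FPKM in the lysate on about 6.08 implied reads, and Snord15b 504 FPKM on about 43.3. The labelled tissue was checked by Mir34c, a microRNA of male germ cells, which ranked 1 of all features in the supernatant, pellet, ACR IP, MVH IP and lysate columns and 7 in round spermatids. Prm1, the protamine gene of spermatids, had 26.8 FPKM in round spermatids, where it ranked 642.

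Snord2 was the highest member wherever its fragments came from supernatant, pellet or lysate. It had 131979 FPKM in the supernatant against 133655 FPKM in the lysate, 53599.6 FPKM in the pellet against 319479 FPKM, and 2831 FPKM in the ACR IP against 277707 FPKM. It had 6327 FPKM in the MVH IP and 1625 FPKM in round spermatids, where 12 members were higher. Its level was 14.6-fold that of the next member in the supernatant, 13.1-fold in the lysate and 4.18-fold in the pellet. Snord2 and Snord104 were the only members above 0 in 4 or more of the 5 fraction columns. A further 29 members were above 0 in 3, 18 in 2 and 11 in 1. Snord11 and Snord19 were above 0 in the lysate only. In these counts a member not listed for a fraction counts as not above 0, and only 24 of the 62 were listed for all 5. After Snord2, the highest members of the lysate column in the supernatant table were Snord37 with 10236.9 FPKM, Snord66 with 6321, Snord69 with 5979.85, Snord85 with 5847, Snord49a with 5835, Snord95 with 5302, Snord55 with 4216, Snord82 with 3535 and Snord68 with 3321. Across members, supernatant and lysate levels had a Spearman rho of 0.830 (61 genes), pellet and lysate 0.655 (58 genes), and round spermatids and lysate 0.752 (36 genes). These are descriptions across genes, which are not independent, and the first 2 pairs share a normalization. Length and lysate level had a rho of -0.49 over 60 genes, and FPKM is itself divided by length.

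The supernatant was compared with the lysate to see which small RNAs stayed in solution. The levels of box C/D snoRNA fragments were close to those of the lysate, with a median log2 ratio, on the log2(FPKM + 1) scale, of -0.26 (quartiles -0.70 and 0.42, 61 genes), against 0.02 over all features. Of the 61, 8 were at least 2-fold higher (13.1%, background 7.16%) and 11 at least 2-fold lower (18.03%, background 5.42%). Much of this came from genes at 0 in a column. Among the 52 above 0 in both columns, 3 were higher (background 1.81%), 7 were lower (background 2.77%) and the median was -0.27.

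Most of these ratios could not be told from 0 by their SE. Without a pseudocount, 49 of the 52 log2 ratios lay within 2 SE of 0, with a median SE of 0.68, while over all features 9.06% lay lower and 8.91% higher than that. The 3 beyond it were lower in the supernatant. Snord12 had 598 FPKM in the supernatant against 2541 FPKM in the lysate (log2 ratio -2.09, SE 0.73), or about 5.27 against 14.9 implied reads. Snord23 had 462 FPKM in the supernatant against 1018 FPKM in the lysate (log2 ratio -1.14, SE 0.47). Snord85 had 3249 FPKM in the supernatant against 5847 FPKM in the lysate (log2 ratio -0.85, SE 0.36). The authors' deposited table called 0 of the 61 changed (background 2.58%). Its q-value was below 0.05 for Snord12 alone, at 0.04998 (background 4.9% lower and 3.82% higher).

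Ordered by log2 ratio without a pseudocount, the highest members above 0 in both columns were Snord17 at 1.88 (SE 1.13), Snord89 at 1.74 (SE 1.49), Snord42b at 1.68 (SE 1.05), Snord110 and Snord49b at 1.001 (SE 1.21 each) and Snord32a at 0.98 (SE 0.50). The lowest were Snord88c at -3.39 (SE 1.84), Snord88a at -3.17 (SE 1.85), Snord12, Snord68 at -1.999 (SE 1.12), Snord35a at -1.75 (SE 0.99) and Snord72 at -1.17 (SE 1.48). All of these other than Snord12 were within 2 SE of 0. Snord2 was at -0.02 with an SE of 0.06. With the pseudocount, the values nearest the 2-fold limit were Snord42b (1.68) and Snord17 (1.71) inside and Snord110 and Snord49b (0.999 each) outside on the higher side. On the lower side they were Snord23 (-1.14) and Snord72 (-1.17) inside and Snord71 (-0.90) and Snord85 (-0.85) outside. Genes at 0 in the supernatant were Snord19 with 567, Snord11 with 347, Snord83b with 275 and Snord93 with 257 FPKM in the lysate (4 of 61, background 2.88%). Genes at 0 in the lysate were Snord45b with 1369.68, Snord70 with 201, Snord111 with 110 (109.964), Snord53 with 90.7 and Snord8 with 54.3 FPKM in the supernatant (5 of 61, background 5.5%).

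The pellet, the material from which chromatoid bodies were enriched, had lower FPKM than the lysate for nearly all of these genes, as it did for most features. The median log2 ratio on the log2(FPKM + 1) scale was -2.40 (quartiles -3.56 and -1.74, 58 genes), against -2.20 over all features. Of the 58, 50 were at least 2-fold lower (86.2%, background 86.5%) and 2 at least 2-fold higher (3.45%, background 8.75%). Those 2 were Snord45b with 2021 FPKM in the pellet and Snord8 with 120 (119.788) FPKM in the pellet, both at 0 in the lysate, as 3.26% of all features were. With the ratios centred on the median of all features, 19 were lower and 10 higher. The shares of all features after centring were not counted, so these counts have no background. Of the 45 members above 0 in both columns, 39 were lower (background 88.1%) and 0 higher (background 6.38%). Among features above 0 in both columns, the median was -2.19 for the 45 box C/D genes, -1.45 for 14 box H/ACA genes and -4.39 for 279 microRNA genes. The box C/D genes had a median nearer to that of all features, -2.12, than the microRNA genes had, and their share of the column was the higher one in the pellet (3.97% against 1.10% in the lysate). Their summed level was itself lower, 115471 FPKM in the pellet against 540799 FPKM in the lysate. The column total was lower by more, 2.91e+06 against 4.92e+07 FPKM. Snord2 alone held 46.4% of the members' sum in the pellet and 59.1% in the lysate.

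The 3 members with the highest pellet level after Snord2, namely Snord37, Snord69 and Snord95, had higher log2 ratios than Snord2. They were picked by pellet level, the numerator of the ratio, so a high ratio was partly built in. Of like lysate level, Snord66 was at -2.19, Snord49a at -2.64 and Snord85 at -3.21. Snord37 had 12835.3 FPKM in the pellet against 24469.5 FPKM in the lysate (log2 ratio -0.93, SE 0.46). Snord95 had 6279 FPKM in the pellet against 12673.6 FPKM in the lysate (log2 ratio -1.01, SE 0.43). Snord69 had 6985 FPKM in the pellet against 14293.8 FPKM in the lysate (log2 ratio -1.03, SE 0.52). Snord2, at -2.58 with an SE of 0.13, lay near the median of -2.71 that all features above 0 in both columns had without a pseudocount. The difference of the log2 ratio from that of Snord2 was computed for all 44 other members above 0 in both columns. The 95% intervals rest on the SE alone, hold no spread between libraries and are not adjusted over the 44. For 39 the interval covered 0, for 0 it lay below 0 and for 5 above. The difference was 1.64 for Snord37 (95% interval 0.717 to 2.57), 1.56 for Snord95 (0.675 to 2.45) and 1.54 for Snord69 (0.500 to 2.58), and the others were Snord57 at 2.44 (0.274 to 4.60) and Snord4a at 1.95 (0.0165 to 3.88). Snord95 shares at least 19 nt with another short RNA gene, so its level may not be its own. In the supernatant the differences of Snord37, Snord95 and Snord69 were -0.16, -0.55 and -0.73, each with an interval that covers 0. Of 51 members compared there, 47 intervals covered 0, those of Snord12, Snord23 and Snord85 lay below 0 and that of Snord32a above. Snord57 had 1881 FPKM in the pellet against 2071 FPKM in the lysate, a log2 ratio of -0.14 with an SE of 1.10. These 4 and Snord4a, at -0.63 with an SE of 0.98, were the 5 of 45 members more than 2 SE from the all-feature median, all 5 above it. Of all features 19% lay that far above, a larger share than of the members, and 8.2% that far below. Over the 45, 33 were above that median and 12 below, with a median difference of 0.51. With a pseudocount of 1 FPKM the difference of medians was -0.07, so its sign depends on the pseudocount.

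Other named ratios in the pellet had wide errors. The highest, besides those above, were Snord35b at 0.36 (SE 1.77), Snord90 at -0.24 (SE 1.24) and Snord89 at -0.28 (SE 2.35). The lowest were Snord12 at -5.79 (SE 4.71), Snord23 at -5.34 (SE 2.37), Snord71 at -4.02 (SE 4.76), Snord88c at -3.63 (SE 2.64), Snord88a at -3.41 (SE 2.67), and Snord87 and Snord72 at -3.29 (SE 1.68 and 4.84). Listed at 0 in the pellet were 11 of 58 (background 10.7%), among them Snord68 with 7938 FPKM in the lysate and Snord91a with 4839 FPKM in the lysate. Near the 2-fold limit, Snord95 and Snord69 lay just inside on the lower side and Snord37 and Snord4a outside. In the authors' deposited table Snord2 was the 1 member called changed (background 19.4%). The q-value was below 0.05 for 18 members, all lower (background 69.4%), and for 0 in the higher direction (background 5.59%). By their SE 17 of 45 were beyond 2 SE of 0, all of them lower, where 78% of all features were lower and 6.26% higher by that measure.

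**Figure D2:**
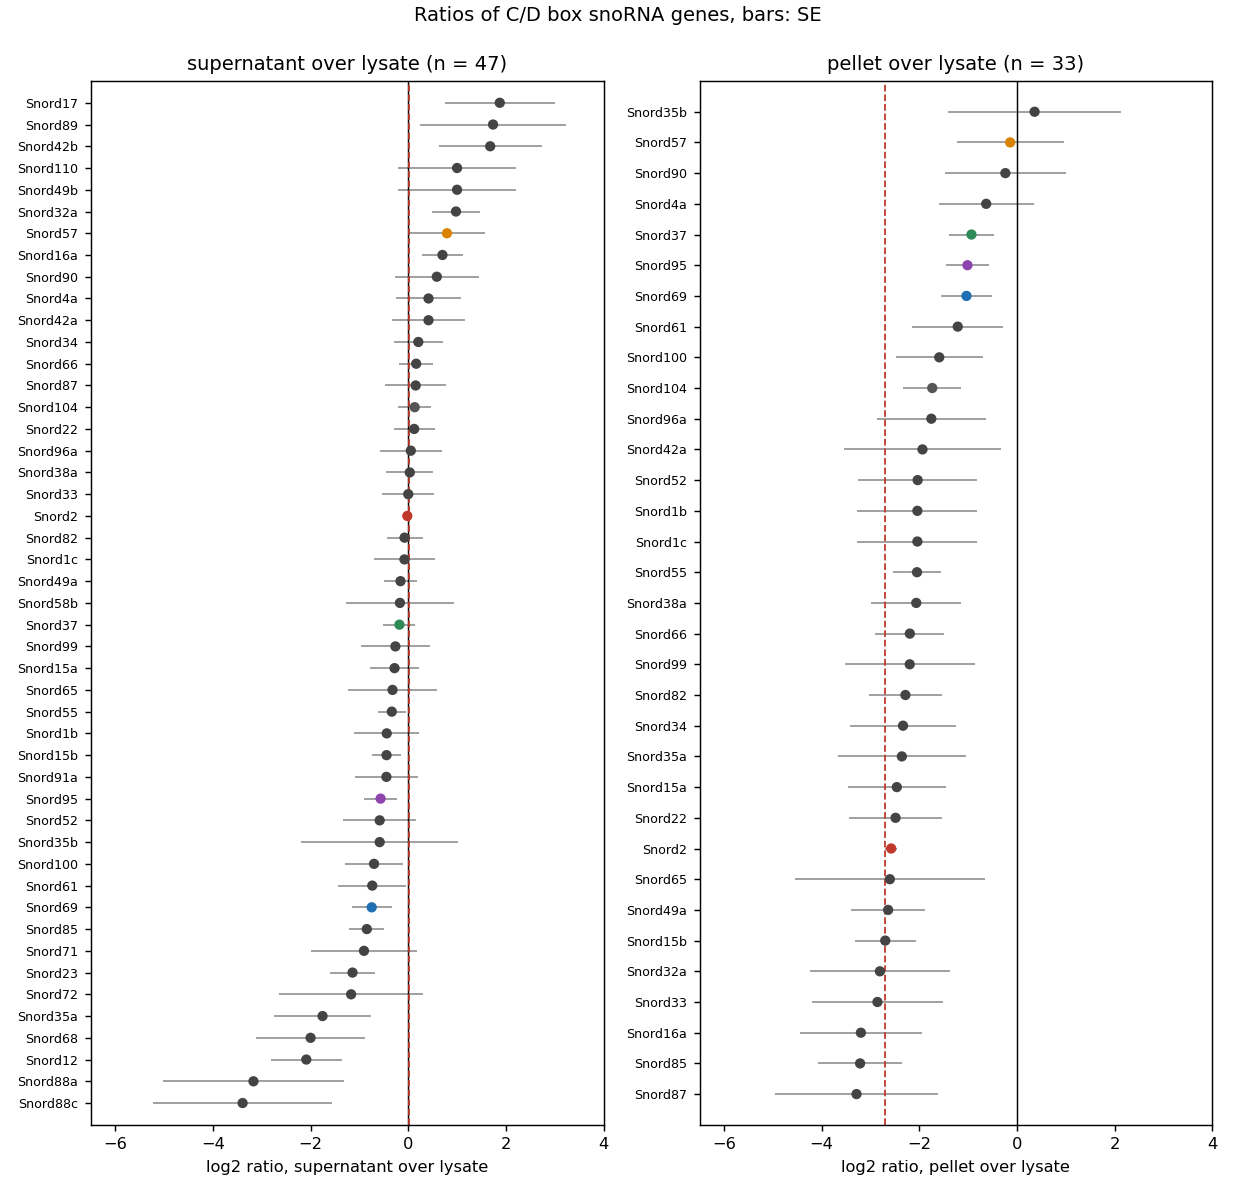
Log2 ratio without a pseudocount (points) with its SE (bars) for members above 0 in both columns whose SE is below 2, for supernatant over lysate (47 genes, left) and pellet over lysate (33 genes, right). The dashed line is the median of all features. Most bars in the supernatant cross 0, and Snord2 (red) has the shortest bar in both panels. In the pellet Snord37, Snord95, Snord69, Snord57 and Snord4a lie right of the dashed line by more than 2 SE.

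The ACR IP is the control precipitate, and Snord2 was its only member above 0. It had 2831 FPKM in the ACR IP against 277707 FPKM in the lysate, which is 1.02% of the lysate level and a log2 ratio of -6.62 on the log2(FPKM + 1) scale. The other 47 of 48 were listed at 0 (97.9%, background 41.2%) and 0 were at 0 in the lysate (background 9.77%). All 48 were at least 2-fold lower (background 59%), with 0 higher (background 36.4%). For the 47 this follows from their zeros and is not a second result. The median log2 ratio of -10.8 was set by the lysate level and the pseudocount. At the ratio of Snord2, the next highest member, Snord37, would have had 217 FPKM, below the lowest microRNA value above 0 in that column, 327 FPKM. None of the 47 would have reached that value. Longer features were listed above 0 at lower values, such as Prm2 at 6.04 FPKM, and the part of depth in the 47 zeros was not tested. Box H/ACA genes were above 0 for 0 of 19 and microRNA genes for 72 of 293.

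The MVH IP, which holds the enriched chromatoid bodies, showed 3 members above 0. Snord57 had 16192 FPKM and ranked 99 of 8959 features, Snord2 had 6327 FPKM and ranked 145, and Snord104 had 5048 FPKM and ranked 156. Snord57 was thus 2.56-fold above Snord2 there, whereas in the pellet it had 1881 FPKM against 53599.6 FPKM for Snord2, and in that lysate column 2071 FPKM against 319479 FPKM. Snord57 rested on about 4.87 implied lysate reads, and the number of reads behind its MVH IP value is unknown. The other 35 of 38 were listed at 0, among them Snord37, Snord66 and Snord95, which were among the 10 highest of the lysate. The lowest microRNA value above 0 was 344 FPKM, and 208 of 217 microRNA genes and 2 of 12 box H/ACA genes were above 0. Levels in the MVH IP table were normalized apart from the others, and no lysate column stands beside them.

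In sorted round spermatids the order of the members differed from that of the lysate. The round spermatids were sorted and labelled hetMIWI and the lysate was not, so cell type, genotype and preparation cannot be told apart. Snord69 led with 21056.5 FPKM, followed by Snord95 with 8124, Snord52 with 7657, Snord85 with 7032, Snord91a with 6653, Snord49a with 6538, Snord65 with 6411, Snord82 with 5686.5, Snord66 with 4380.01 and Snord55 with 3674 FPKM. Snord110 and Snord33 were at 0. Snord2, with 1625 FPKM, ranked 13 among the 35 members listed in the supernatant, pellet and round spermatid tables. Its share of their summed FPKM was 67.9% in the supernatant, 50.7% in the pellet and 1.76% in round spermatids, against 64.2% in the lysate. Snord69 held 1.83% in the supernatant, 6.60% in the pellet and 22.8% in round spermatids, against 2.87% in the lysate. The ratio of Snord2 to Snord69 was 37.1 in the supernatant, 7.67 in the pellet and 0.0772 in round spermatids, against 22.4 in the lysate. Within 1 column such a ratio does not depend on library scaling, but each rests on 1 library and the reads behind the round spermatid values are unknown.

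Scaled to the median member, Snord2 stood furthest from the rest. For the 33 members above 0 in round spermatids and lysate, the log2 ratio of round spermatids to lysate, less the median of the 33, was -5.69 for Snord2 and -1.84 for the next lowest, Snord37. It was within 1 of the median for 17, at least 1 above for 9 and at least 1 below for 7. The highest were Snord67 at 3.25 (252.899 against 42.3 FPKM), Snord93 at 3.25 (1533.55 against 257 FPKM), Snord65 at 3.10 (6411 against 1192 FPKM), Snord52 at 2.83 (7657 against 1709 FPKM) and Snord69 at 2.48 (21056.5 against 5979.85 FPKM), each with round spermatids first and lysate second. Snord67 rested on under 1 implied lysate read (0.713), Snord65 on 4.64, Snord52 on 7.46 and Snord69 on 26.5. For Snord93, at 0 in the supernatant, none could be derived. It shares at least 19 nt with Mir3096, so its level may not be its own. The 2 columns come from separately normalized tables, so only the order and the relative positions are given, with no SE. In a bulk lysate, fewer cells of a type and less RNA per cell cannot be told apart.

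**Figure D3:**
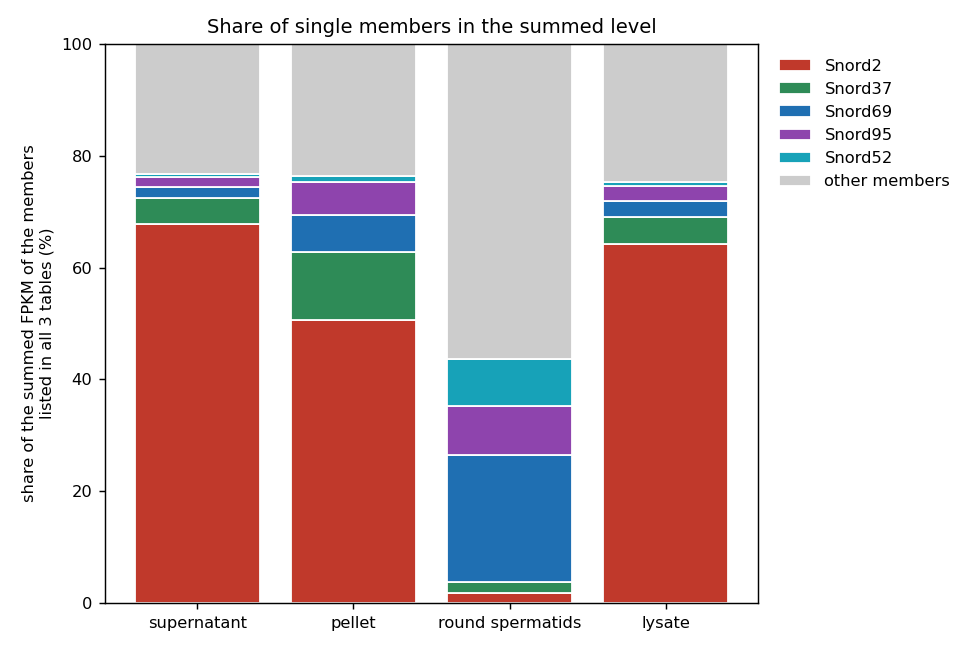
Share in percent of the summed FPKM of the 35 members listed in the supernatant, pellet and round spermatid tables that single genes hold, with 1 stacked bar for each of supernatant, pellet, round spermatids and lysate. Snord2 holds 67.9%, 50.7%, 1.76% and 64.2% from left to right, and Snord69 22.8% in round spermatids.

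The hosts and partners of these snoRNAs had far lower FPKM, a measure divided by feature length. Lower FPKM of a longer gene need not mean fewer reads, and reads were not compared. The median SE in the supernatant was 0.42 for the host genes listed below and 0.68 for the members. Where a named gene shared a member's locus in the supernatant table, the member was the higher of the pair in the lysate in 39 of 40 pairs, with medians of 884 FPKM for the members and 2.95 FPKM for the genes. In the pellet table it was higher in 29 of 29. In the pellet the median log2 ratio on the log2(FPKM + 1) scale was -2.06 for members and -2.37 for those genes. The pseudocount draws ratios of genes near 0 FPKM toward 0, such as Rpl4 with 0.434 FPKM in the pellet against 8.91 FPKM in the lysate. It hardly moves those of the members, so the 2 medians cannot be compared. Of a list of 54 known or likely host genes, 42 were in the tables. In the supernatant 1 of 34 was at least 2-fold higher (Snhg6, log2 ratio 1.38) and 0 lower (background 7.16% and 5.42%), with a median of 0.12. In the pellet 20 of 21 were lower (background 86.5%), with a median of -2.37. In the ACR IP 2 of 18 were higher (background 36.4%) and 12 lower (background 59%). Eef2, the host of Snord37, had 1.47 FPKM in the pellet against 11.2 FPKM in the lysate, a log2 ratio of -2.30 with the pseudocount, beside -0.93 for Snord37.

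Of 23 genes for snoRNA-binding and assembly proteins, 13 were in the tables and 7 were tested in the supernatant, none at least 2-fold changed, with a median of 0.03. In the pellet 1 of 2 was lower (background 86.5%), Nhp2l1, the Snu13 gene, with 0.0831 FPKM against 4.32 FPKM in the lysate. In the ACR IP both tested were higher (background 36.4%). Npm1, which encodes the nucleolar protein nucleophosmin, had 1097 FPKM in the ACR IP against 4.23 FPKM in the lysate, and Gar1, of the box H/ACA particle, had 6.97 FPKM in the ACR IP against 0.929 FPKM in the lysate.

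By role and host, the members were unevenly listed. Of the 10 snoRNAs of the introns of Gas5, a non-coding snoRNA host, 0 were in the tables, although Gas5 itself had 6.02 FPKM in the supernatant against 6.85 FPKM in the lysate. Of 8 from Snhg1 and of 10 listed for their part in cutting the ribosomal RNA precursor, only Snord22 was listed, with 380 (379.547) FPKM in the supernatant against 349 FPKM in the lysate and 149 FPKM in the pellet against 834 FPKM. All 4 of Rpl13a were listed, Snord32a, Snord33, Snord34 and Snord35a. In the pellet all 4 were lower (background 86.5%), with a median of -2.58, and in the supernatant their median was 0.10 with Snord35a lower. Of the imprinted snoRNAs of chromosome 7, which lie in the Prader-Willi region and have no known ribosomal RNA target, Snord64, Snord116, Snord116l1 and Snord116l2 were listed. Snord64 had 318 FPKM in the supernatant against 477 FPKM in the lysate, on about 0.98 implied reads in each. The 3 Snord116 entries had identical values, 3.70 FPKM in the supernatant against 5.55 FPKM in the lysate, and all 4 were at 0 in the pellet.

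Several members share sequence over lengths that a library read could cover, so their levels may not be separate measurements. How the authors treated reads with several matches is not stated in the labels or headers. At least 19 identical nt were shared with another short RNA gene by 16 of the 61 members with a sequence, Snord95 among them. Among members the longest shared stretches were 94 nt in Snord116l1 and Snord116l2, 46 nt in Snord1b and Snord1c, 45 nt in Snord88a and Snord88c, and 21 nt in Snord15a and Snord15b. Snord1b and Snord1c had nearly equal pellet ratios (-2.04 each), while their supernatant ratios were -0.44 (SE 0.66) and -0.08 (SE 0.62). Snord49b and Snord110, which share no stretch of at least 19 nt, also had equal pellet ratios (-1.28 each). The shared 46 nt of Snord1b and Snord1c are in capitals here. The genes lie on the plus strand of GRCm38 at chr11:116674148-116674222 and chr11:116672506-116672581.
Snord1b: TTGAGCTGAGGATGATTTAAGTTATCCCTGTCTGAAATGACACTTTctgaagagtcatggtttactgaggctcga
Snord1c: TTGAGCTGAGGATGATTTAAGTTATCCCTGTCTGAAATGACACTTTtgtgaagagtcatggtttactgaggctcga
Of 1738 mature microRNAs searched, 1 lay whole within a member. It is miR-5121 of 21 nt, at positions 3 to 23 of Snord33, in capitals below, on the minus strand at chr7:45126864-45126947 (GRCm38).
Snord33: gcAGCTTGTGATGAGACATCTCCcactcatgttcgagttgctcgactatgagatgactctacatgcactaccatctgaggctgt
Snord33 had 899 FPKM in the supernatant against 898 FPKM in the lysate, 296 FPKM in the pellet against 2147 FPKM, and was at 0 in round spermatids. Reads of that stretch cannot be told apart between both genes by sequence. Snord93 shares at least 19 nt with Mir3096.

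The lysate library enters 3 tables, and its values there allow a check of the processing. The lysate level of a member in the pellet table was 2.38 to 2.40 times that in the supernatant table (56 members), a common scale. The ratio of the ACR IP table to the pellet table was 0.867 for all features at the median, and 40 of 48 members lay within 2% of it. The other 8 were lower (33.2% of all features were), Snord1b and Snord1c by 36.5%, Snord42b by 19.6%, Snord15a by 14.3%, Snord42a by 8.63%, Snord32a by 7.23%, Snord15b by 4.07% and Snord66 by 3.24%. Of these 8, Snord1b, Snord1c, Snord15a and Snord15b share at least 19 nt with another short RNA gene and the other 4 do not. Of 8 sharing members in that table, the other 4 were not lower. The part of shared reads in this difference was not tested, and the ratios of those 8 in the ACR IP rest on the lower lysate values.

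**Figure D4:**
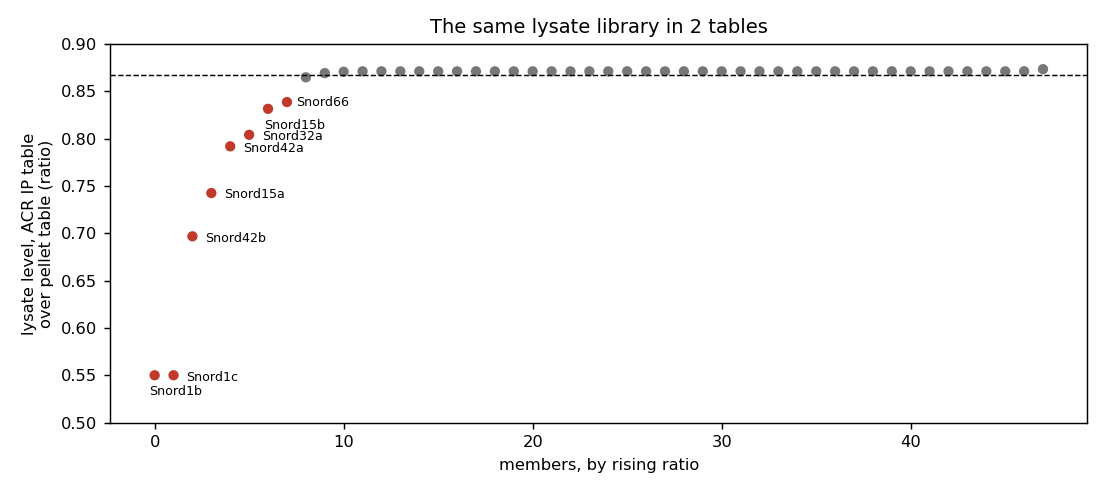
Lysate level in the ACR IP table over that in the pellet table for 48 members in rising order (vertical axis from 0.5 to 0.9), with the median of all features as a dashed line. The 8 members in red lie over 2% below the line, Snord1b and Snord1c lowest, and the other 40 lie within 2% of it.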

How the data were processed

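The members and lists were chosen with earlier results of these data known. Small RNA of 19 to 33 nt was sequenced by the authors, and per the submitters' processing notes TopHat and Cuffdiff were used with mm9. The annotation and the handling of reads with several matches are not stated. The authors deposited FPKM values in 5 tables, with p-values, q-values and a test statistic, a score with no fixed range, in the supernatant and pellet tables. In the table of the MVH IP, 1 column belongs to no sample here and was not used. Rows of the same symbol and locus were summed. Log2 ratios of (FPKM + 1) were taken within a table for features of at least 1 FPKM in either column, with a 2-fold limit. The SE of a log2 ratio without pseudocount is that ratio divided by the authors' test statistic, which is the deposited score. It holds no spread between libraries and was read as counting error. Some implied reads fall below 1, so it may hold more than the counting of whole reads. Coordinates and sequences come from GENCODE release 21 (GRCm38), not mm9. The named genes were the members above 0 in at least 4 fraction columns, the 6 highest and 6 lowest log2 ratios, the 6 highest levels at 0 in a column, the 10 highest of each level column and the authors' calls, of which the ones that matter are printed. The comparisons with Snord2, the implied reads, and the round spermatid and lysate comparison were chosen after the values were seen. Python 3.11.15, numpy 2.4.6, pandas 2.3.3 and matplotlib 3.10.9 were used.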

Additional observations from a re-analysis of the deposited data

How the results depend on the processing

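No paired analysis was possible because each group has 1 column of values, and for the same reason no library could be left out. One result changed direction. The pellet median of members above 0 in both columns less that of all such features was -0.07 with a pseudocount of 1 FPKM, but 0.51 without one, 0.44 with 0.1 FPKM and -1.45 with 10 FPKM, settings chosen after seeing the data. No other result changed direction, and 46 values stayed within their limits. In the supernatant, a filter of 100 FPKM gave 5 members at least 2-fold higher, and members above 0 in both columns gave 3 higher and 7 lower, where 8 and 11 are reported. Without members whose name ends in a copy letter and Snord116 copies, 7 were lower, of fewer members. In the pellet the median was -2.23 with a pseudocount of 10 FPKM, -2.19 for members above 0 in both columns and -0.20 after centring on all features. Members higher there numbered 0 above 0 in both columns, 10 after centring and 1 without copies, and members lower 19 after centring and 29 without copies. No background was counted after centring. In the ACR IP the median was -14.1 and -7.50 with pseudocounts of 0.1 and 10 FPKM, -6.62 for the 1 member above 0 in both columns, -8.12 after centring and -11.3 without copies. Members lower there numbered 1 above 0 in both columns and 31 without copies, of 31. The median percentile rank was 97.0 among features above 0 (3 members) and 34.2 among loci under 200 bp in the MVH IP, where 23.1 is the value over all, and 45.7 among loci under 200 bp in round spermatids, where it is 72.3. The 23.1 is the rank shared by every feature at 0 in the MVH IP, so it says only that most members were at 0. The cause of these changes was not tested beyond the fewer members each setting leaves. Taking the highest value of a symbol and locus was not run in round spermatids, which have no duplicate rows. Depth limits most members to fewer than 10 implied lysate reads.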
